A study of Mus musculus with 12 samples.

Results

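In murine CD4+ T cells, 9 genes with little or no mRNA in activated Th0 cells were clearly read in cells cultured toward induced regulatory T (iTreg) cells: Lhx6, Gja5, Gja3, Myof, Kctd14, Nupr1, Cmklr1, Peli2, and Ctla2a. They were taken by symbol, for near-zero values in Th0 cells and a strong increase in iTreg cells, from the 11056 genes listed in the table of iTreg versus Th0. All 9 have a row there, and 5 of them, Gja3, Peli2, Kctd14, Myof, and Ctla2a, also have a row among the 11077 genes of the table of Th17 versus Th0. The data go against the description for Ctla2a, which had 15 to 36 fragments in each Th0 library and was low rather than silent.

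The 12 RNA-seq libraries came from naive CD4+CD62L+ T cells of C57BL/6 mice of 8 to 10 weeks, 4 libraries each for Th0, iTreg, and Th17, harvested after 72 h. Cells of every group were stimulated with plate-bound anti-CD3 and anti-CD28 at 1 μg/ml each. Th0 cells received no polarizing cytokine, iTreg cells received IL2 and TGFβ1 at 10 ng/ml each, and Th17 cells received 30 ng/ml IL6, 5 ng/ml TGFβ1, and 10 μg/ml each of antibodies that neutralize IL4 and IFNγ. IL2 is therefore part of the iTreg cocktail and the neutralizing antibodies are part of the Th17 cocktail, so effects of single additions cannot be told apart. The libraries are called here by the headings of their columns, which end in _1 for Th0, _4 for iTreg, and _5 for Th17 and start with M22, M29, M42, or M43. Sample titles number 4 experiments, and nothing in the headings says which experiment a library belongs to.

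Values are FPKM, in which fragments (reads or read pairs) are divided by the length of the transcript and by the depth of the library, and each library held 6861525 to 10102431 fragments on the listed genes. The values lay on exact steps, from which the whole number of fragments behind them was recovered, and these numbers show how much counting stands behind a low value. The T cell markers with a row (8 of 9) summed to 1357 to 1977 FPKM in iTreg and 1253 to 2479 FPKM in Th0 libraries, and Foxp3, the transcription factor that defines regulatory T cells, stood at 62.0 to 91.7 FPKM in iTreg and 2.01 to 7.15 FPKM in Th0 libraries. None of the natural killer, erythroid, and γδ T cell markers had a row. Of the B cell markers only Cd79a had one (1 of 5), with 0.505 to 2.0 FPKM in iTreg and 0.638 to 3.80 FPKM in Th0 libraries. The myeloid list had 1 of 8, Cd68, with 2.61 to 7.19 and 3.19 to 4.85 FPKM, the dendritic list 1 of 6, Zbtb46, with 0.366 to 0.637 and 0.303 to 1.42 FPKM, the neutrophil and mast cell list 1 of 6, Kit, with 0.193 to 0.972 and 0.0206 to 0.560 FPKM, and the endothelial and stromal list 1 of 8, Pecam1, with 4.60 to 8.32 and 12 to 22.7 FPKM. In RNA of whole cultures, a higher share of expressing cells and more mRNA per cell cannot be told apart.

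TGFβ1 binds a receptor kinase pair that phosphorylates SMAD proteins, which enter the nucleus and bind short DNA elements together with other factors. IL2 acts on activated T cells through STAT5, and both signals together induce Foxp3 in naive T cells. The 9 genes belong to no common pathway. Gja5 and Gja3 encode connexins, the subunits of gap junction channels, known from the heart and vessels and from the lens. Cmklr1 encodes a G protein-coupled receptor for chemerin, Myof the membrane repair protein myoferlin, and Peli2 a ubiquitin ligase of the Pellino family. Kctd14 belongs to a family that shares a BTB domain, Lhx6 encodes a LIM homeobox transcription factor known from interneuron development, and Nupr1 a small stress-induced nuclear protein. Ctla2a encodes an inhibitor of cathepsin L-like proteases that resembles the propeptide of these enzymes.

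RefSeq promoter windows (GRCm38.p6, from 250 bases before to 50 bases after a transcript start) were found for 8 of the 9 genes, 12 windows in all, and none for Kctd14. The 250 bases before the start are shown for 4 genes, since they include the genes of highest and lowest level in iTreg cells and stretches with and without the letters sought. Capitals mark the letters CAGAC, the core of the SMAD element, and TATAAA, the letters of a TATA box, on either strand and at any position. The windows are Nupr1 at chr7:126625471-126625720, Ctla2a at chr13:60936626-60936875, and Gja3 at chr14:57058031-57058280, all on the minus strand, and Gja5 at chr3:97032152-97032401 on the plus strand, printed 5′ to 3′ along the gene.
Nupr1: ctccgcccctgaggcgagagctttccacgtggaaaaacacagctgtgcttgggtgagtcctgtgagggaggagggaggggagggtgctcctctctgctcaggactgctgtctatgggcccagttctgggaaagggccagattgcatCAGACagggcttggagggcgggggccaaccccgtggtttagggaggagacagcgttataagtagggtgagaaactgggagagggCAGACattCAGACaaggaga
Ctla2a: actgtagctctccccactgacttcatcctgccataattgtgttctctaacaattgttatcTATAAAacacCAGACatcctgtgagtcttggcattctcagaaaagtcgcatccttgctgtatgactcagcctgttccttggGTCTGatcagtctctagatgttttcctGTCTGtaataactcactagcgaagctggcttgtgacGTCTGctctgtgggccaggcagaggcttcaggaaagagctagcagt
Gja3: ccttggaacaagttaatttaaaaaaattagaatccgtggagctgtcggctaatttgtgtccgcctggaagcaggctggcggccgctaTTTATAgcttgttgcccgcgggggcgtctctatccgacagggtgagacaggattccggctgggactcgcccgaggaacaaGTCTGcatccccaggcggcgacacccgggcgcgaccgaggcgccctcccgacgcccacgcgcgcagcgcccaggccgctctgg
Gja5: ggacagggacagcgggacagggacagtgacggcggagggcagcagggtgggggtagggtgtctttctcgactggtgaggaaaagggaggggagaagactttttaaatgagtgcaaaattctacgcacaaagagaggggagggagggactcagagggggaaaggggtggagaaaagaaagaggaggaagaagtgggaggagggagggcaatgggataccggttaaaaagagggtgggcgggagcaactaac

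Nupr1 had 3 CAGAC matches in these bases, at 104, 20, and 12 bases before the start, Ctla2a had 4, Gja3 had 1, and Gja5 had none. The TATAAA letters shown lie 190 bases before the start in Ctla2a and 163 bases before it in Gja3. Over whole windows, CAGAC occurred in 7 of the 12 windows of these genes (Cmklr1, Ctla2a, Gja3, Lhx6, and Nupr1) and in 49.6% of all 32851 RefSeq windows, so that about every other promoter holds these letters. TATAAA was found in 4 of 12 windows (Ctla2a, Gja3, and Lhx6) against 13.6% of all windows, and the GC box GGGCGG in 6 of 12 (Gja3, Gja5, Lhx6, Nupr1, and Peli2) against 35.7%. The AP-1 letters TGANTCA were found in 3 of 12 windows (Ctla2a and Lhx6) against 7.81%, the forkhead letters TGTTTAC in 1 (Peli2) against 3.65%, and the NFAT letters TGGAAA in 1 (Nupr1) against 21.4%. All letters were sought on both strands. Windows of Ctla2a overlap each other, so their matches are partly the same bases, and matches describe the letters only. The windows ranged in GC content from 46.3% for Myof to 76.0% for a window of Gja3, around a median of 52.7% over all windows.

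To see how the 9 genes differed between Th0 and iTreg cells, their values were read library by library. Since the genes had been selected on this contrast, differences from Th0 are described without a test. Folds are ratios of recovered fragments per library depth, and their 95% intervals (exact, Clopper-Pearson) cover counting error only. In all 9 genes every iTreg library lay above every Th0 library, as it did in 11.7% of the 10208 genes tested, and nothing is read from that count because the rule fixed it.

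**Figure D1:**
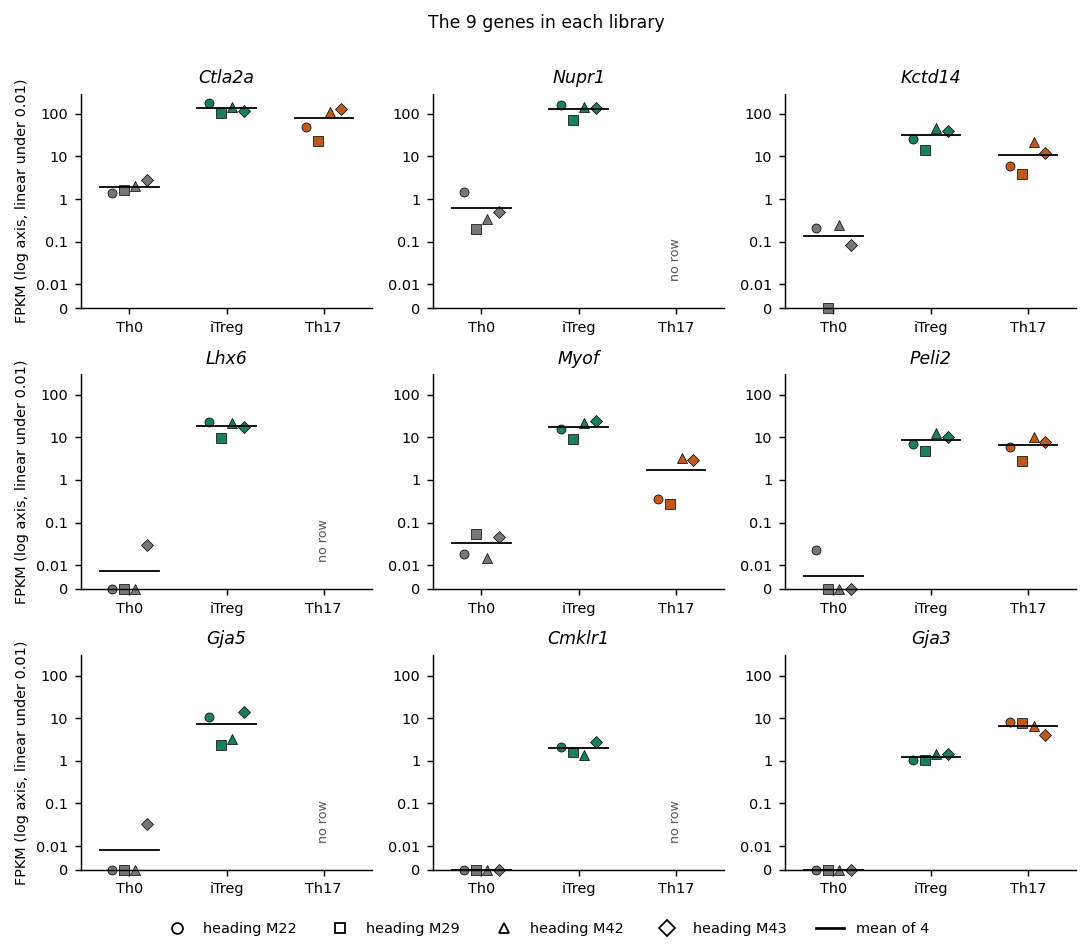
FPKM of each gene (y axis, logarithmic and linear under 0.01) in the 4 Th0, 4 iTreg, and 4 Th17 libraries, with a symbol for the start of the column heading and a line at the mean of 4. The iTreg libraries lie above the Th0 libraries in every panel, Ctla2a has Th0 values of 1.42 to 2.73 FPKM, and 4 genes have no row in the Th17 table.

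The connexin gene Gja5 (GRCm38 chr3:96904693-97077416, plus strand) had 10.7, 2.36, 3.24, and 13.7 FPKM in iTreg libraries M22_4, M29_4, M42_4, and M43_4, from 370, 74, 93, and 391 fragments. Th0 libraries had 0 fragments except M43_1, which had 1 (0.0333 FPKM). The iTreg mean was 7.50 ± 5.58 FPKM (SD, n = 4), 822-fold over Th0 with an interval of 147 to 32484. Libraries M22_4 and M43_4 were high and M29_4 and M42_4 low, a range of 5.83-fold, and the coefficient of variation of 74.4% was the highest of the 9 genes in iTreg libraries. Of its exonic bases, 2.87% lie in exons of Gpr89 on the other strand, which counting without strand cannot separate, and 12.7% of its 100-base stretches also occur in transcripts of other genes, mostly of Zfp697.

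Gja3 (chr14:57034460-57058100, minus strand), the other connexin gene, was the lowest of the 9 genes in iTreg cells, with 1.08, 1.05, 1.42, and 1.47 FPKM in M22_4, M29_4, M42_4, and M43_4 and only 30 to 38 fragments per library. It also varied least, with a mean of 1.25 ± 0.221 FPKM (SD, n = 4). No Th0 library had a fragment. Set against a floor of 3 fragments over the 4 Th0 libraries, the iTreg level was at least 41.0-fold higher. None of its exonic bases is shared with another gene.

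Cmklr1 (chr5:113612354-113650426, minus strand), the chemerin receptor gene, had 2.16, 1.64, 1.40, and 2.75 FPKM in the same order of iTreg libraries, from 67, 46, 36, and 70 fragments. It had no fragment in any Th0 library. The iTreg mean of 1.99 ± 0.598 FPKM (SD, n = 4) was at least 64.6-fold over the same floor. Its iTreg range overlapped that of Gja3, the neighbour below it in level. Neither the chemerin gene nor the genes of its other receptors had a row in either table.

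Myof (chr19:37899036-38043577, minus strand), encoding myoferlin, had 16.1, 9.13, 21.6, and 24.2 FPKM in M22_4, M29_4, M42_4, and M43_4. These values rest on 1244, 640, 1379, and 1535 fragments, and the gene has the longest exonic sequence of the 9 (12603 bases). Every Th0 library had a trace, 1 to 3 fragments or 0.0151 to 0.0534 FPKM. The iTreg mean was 17.7 ± 6.66 FPKM (SD, n = 4), 531-fold over Th0 (interval 269 to 1231).

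Peli2 (chr14:48120823-48281575, plus strand), the Pellino ubiquitin ligase of Toll-like and IL1 receptor signalling, had 7.16, 4.83, 12.3, and 10.2 FPKM in the 4 iTreg libraries, from 457, 279, 650, and 534 fragments. Of the Th0 libraries only M22_1 had a fragment (1, 0.0226 FPKM). The mean of 8.63 ± 3.31 FPKM (SD, n = 4) was 1700-fold over Th0, but that single fragment leaves an interval of 305 to 67171. The pseudogene Gm6498 shares 9.56% of its exonic bases, so fragments there cannot be assigned to Peli2 alone.

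Kctd14 (chr7:97451323-97459557, plus strand) had 26.2, 14, 46.3, and 39.4 FPKM in M22_4, M29_4, M42_4, and M43_4, from 731, 354, 1067, and 901 fragments. Th0 libraries had 0 to 6 fragments and at most 0.251 FPKM. The iTreg mean was 31.5 ± 14.3 FPKM (SD, n = 4), 225-fold over Th0 (interval 129 to 436).

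Lhx6 (chr2:36081953-36105408, minus strand), the homeobox gene, had 23.3, 9.51, 22.2, and 17.6 FPKM in the iTreg libraries, from 910, 336, 715, and 563 fragments. Among Th0 libraries a single fragment was counted, in M43_1 (0.0296 FPKM). The mean of 18.1 ± 6.27 FPKM (SD, n = 4) was 2234-fold over Th0 (interval 401 to 88291). The exonic overlap with Gm27953, a non-coding RNA gene on the same strand, covers 2.16% of its exonic bases.

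Nupr1 (chr7:126623249-126630861, minus strand), the stress-induced nuclear protein gene, reached 163, 73.1, 141, and 140 FPKM in M22_4, M29_4, M42_4, and M43_4, from 1117, 452, 798, and 784 fragments. Th0 libraries had 1.48, 0.202, 0.341, and 0.507 FPKM in M22_1, M29_1, M42_1, and M43_1, and the highest of these, from 7 fragments, was over 1 FPKM. The iTreg mean was 129 ± 39.1 FPKM (SD, n = 4), 215-fold over Th0 (interval 125 to 403). No exonic base is shared with another gene.

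Ctla2a (chr13:60934155-60936625, minus strand), the cysteine protease inhibitor gene, had 179, 102, 143, and 117 FPKM in the iTreg libraries and 1.42, 1.63, 1.99, and 2.73 FPKM in the Th0 libraries. The iTreg values rest on 1406 to 2717 fragments per library. Its mean of 135 ± 33.4 FPKM (SD, n = 4) was the highest of the 9 genes in iTreg cells, while its fold of 68.8 (interval 56.2 to 85.1) was the lowest of the 7 folds that could be given with an interval. Exons of Gm49391, an annotated gene on the same strand, cover 16.3% of its exonic bases, and 11% of its 100-base stretches occur in other transcripts, so its level is less certain than that of the genes with no shared bases. Its paralog Ctla2b (chr13:60895350-60897447, minus strand) shares only 1.11% of these stretches. Ctla2b, which is not one of the 9, had 28.6 ± 7.70 FPKM in iTreg and 0.355 ± 0.319 FPKM in Th0 libraries (SD, n = 4 each). Its log2 difference of FPKM + 1 was 4.44. It passed the filter on low values (over 1 FPKM in at least 4 of 8 libraries) only through its iTreg libraries. The difference is therefore given without a test. Of the Ctla2b exonic bases, 60.1% lie in exons of Gm49391 as well.

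**Figure D2:**
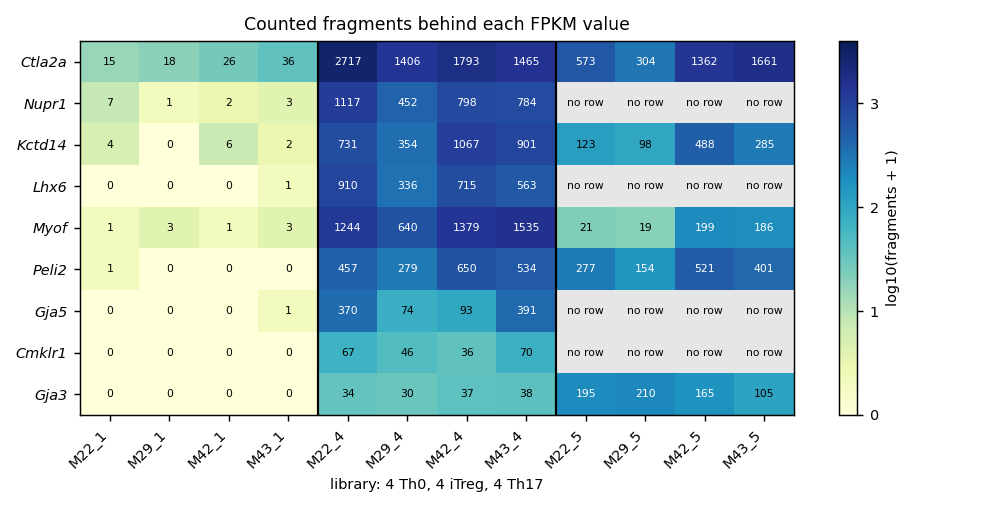
Recovered whole fragments of the 9 genes (rows) in the 4 Th0, 4 iTreg, and 4 Th17 libraries (columns), shaded by log10(fragments + 1). Th0 columns hold 0 to 7 fragments for every gene except Ctla2a with 15 to 36, iTreg columns hold 30 to 2717, and grey cells mark genes without a Th17 row.

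Ordered by mean FPKM, which is a level per length, the genes in iTreg cells ran Ctla2a, Nupr1, Kctd14, Lhx6, Myof, Peli2, Gja5, Cmklr1, and Gja3. Only between Nupr1 and Kctd14 did the ranges of neighbours not overlap. The position among all genes depended on the measure. By the ratio of mean iTreg to mean Th0 FPKM, with 0.1 added to both, Nupr1, Lhx6, Kctd14, Myof, Peli2, Gja5, and Ctla2a held ranks 2, 3, 5, 6, 8, 9, and 11 of 11056, and Cmklr1 and Gja3 held ranks 39 and 65. By mean iTreg level, Ctla2a and Nupr1 ranked 460 and 484, while Cmklr1 and Gja3 ranked 9472 and 9942.

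**Figure D3:**
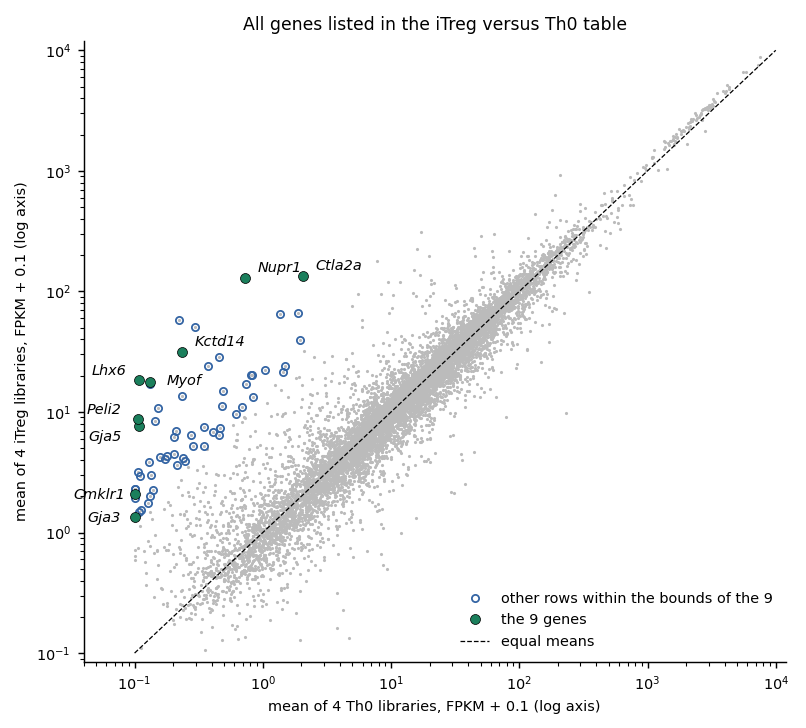
Mean FPKM + 0.1 of the 4 iTreg libraries (y axis) against that of the 4 Th0 libraries (x axis) for all 11056 listed genes, both axes logarithmic, with the 9 genes filled and 50 other genes within their bounds as open circles. The 9 genes lie in the left part above the dashed line of equal means, from Gja3 at the bottom to Ctla2a and Nupr1 at the top. Ctla2a, with a mean Th0 level of 1.94 FPKM, lies farthest to the right of the 9.

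The bounds that hold all 9 genes were a mean Th0 level of at most 1.94 FPKM, set by Ctla2a, and a ratio of at least 13.53, set by Gja3. Within them lay 59 genes, of which 50 were not among the 9. Just inside the ratio bound was Sema6d at 13.60 and just outside it Pde4a at 13.52, while Adam19 with 1.85 FPKM lay just inside the Th0 bound and Smim3 with 2.01 FPKM just outside it. A level under 1 FPKM in every Th0 library was found for 5.77% of the listed genes, and for 5.9% in the Th17 table. The 10 others of highest mean iTreg level were Aqp3 with 65.5, Fam129b with 64.3, Il17f with 57.6, Il9 with 50.3, Adam19 with 39.7, Ctla2b with 28.6, Cyp11a1 with 24.0, Plau with 23.8, Apol9b with 22.3, and Acsbg1 with 21.3 FPKM. They include the cytokine genes Il17f and Il9, the aquaporin gene Aqp3, and Plau, the urokinase gene.

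The genes whose profile over the 8 libraries was most like the mean profile of the 9 were Stab1 (Pearson's r 0.998), Plekhf2, Tnfrsf13b, and Pdlim5 (0.997 each), and Mical2 (0.996). The 8 points form 2 groups, so these values mainly describe the step between Th0 and iTreg and are given without a test. Of the 5, Stab1 and Mical2 were also near 0 in Th0 libraries, with means of 0.0294 ± 0.00334 and 0.0331 ± 0.0373 FPKM, against 3.77 ± 0.753 and 16.9 ± 4.88 FPKM in iTreg libraries (SD, n = 4 each).

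Among iTreg libraries, M29_4 was the lowest for 8 of the 9, at a median of 56.0% of the mean of the 4 libraries, and Cmklr1 was lowest in M42_4. Among all genes tested M29_4 was the lowest library for 27.3%, and for 39.7% of the 853 genes up-regulated in iTreg cells. M29_4 held 9064100 fragments, within the range of the others, and Foxp3 was 66.6 FPKM in it against 91.7, 62.0, and 80.5 FPKM in M22_4, M42_4, and M43_4. Gja5 was low in M42_4 as well. The part of the library in these levels was not tested.

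**Figure D4:**
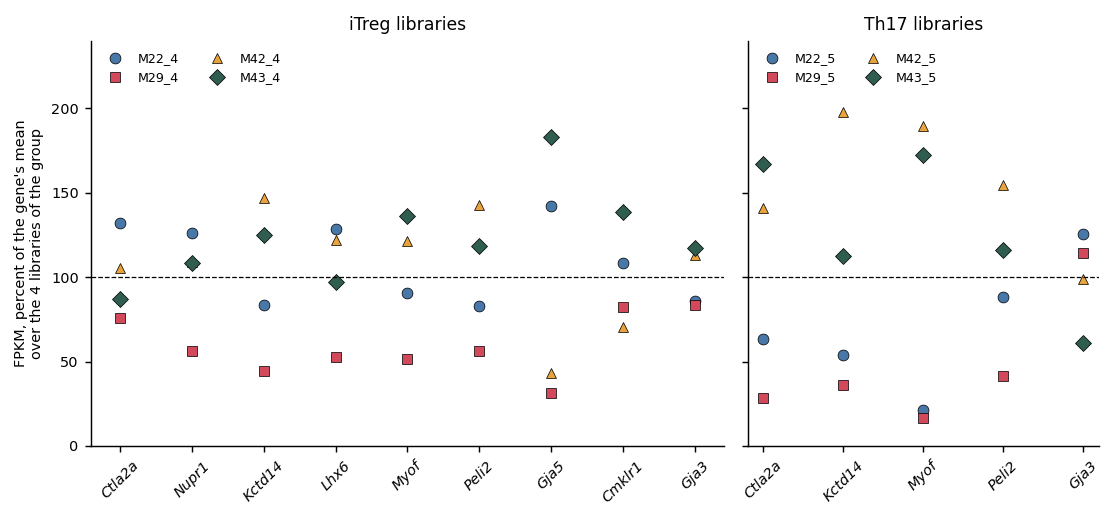
FPKM of each gene as a percentage of its mean over the 4 libraries of the group (y axis), for the 4 iTreg libraries (left) and the 4 Th17 libraries (right), with the dashed line at 100%. Library M29_4 is the lowest for 8 of 9 genes, and library M29_5 is the lowest for 4 of the 5 genes with a Th17 row.

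To find out whether the same genes were read in cells given TGFβ1 with IL6, the 5 genes with a Th17 row were compared between Th17 and Th0 libraries. The Th17 values had no part in the selection, but the Th0 values did. Gja3, Peli2, and Kctd14 passed the filter on low values, and Myof reached the table, only through their Th17 libraries, so their distance from Th0 was fixed by the choice and is described without a test. Both tables hold the same Th0 libraries, and their Th0 values are 0.886% to 1.21% higher in the Th17 table because each table was scaled on its own, so Th17 and iTreg levels are given side by side without a test. Lhx6, Gja5, Nupr1, and Cmklr1 have no row in the Th17 table used here, and their Th17 levels were not analysed. The authors kept genes over 1 CPM in at least 4 libraries.

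Gja3 had 8.26, 7.53, 6.50, and 4.03 FPKM in Th17 libraries M22_5, M29_5, M42_5, and M43_5, from 195, 210, 165, and 105 fragments. All 4 values exceeded the highest iTreg value of 1.47 FPKM, by far more than the difference in scaling. The mean of 6.58 ± 1.85 FPKM (SD, n = 4) was at least 215-fold over the Th0 floor of 3 fragments, and the log2 difference of FPKM + 1 was 2.89. It was the only gene of the 5 with a higher mean in Th17 than in iTreg libraries.

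Peli2 had 5.80, 2.73, 10.2, and 7.62 FPKM in the Th17 libraries, a mean of 6.58 ± 3.12 FPKM (SD, n = 4) that overlapped the iTreg values in range. The log2 difference of FPKM + 1 from Th0 was 2.81. Kctd14 had 5.89, 3.98, 21.8, and 12.4 FPKM and a mean of 11 ± 8.02 FPKM, with a log2 difference of 3.16. Its lower 3 Th17 libraries lay under the lowest iTreg library of 14 FPKM. Ctla2a had 50.4, 22.6, 111, and 132 FPKM and a mean of 79.2 ± 51.3 FPKM, with a log2 fold change of 4.48 (SE 0.49, limma adjusted p 3.7e-04). Ctla2a was over 1 FPKM in all 8 libraries, so the filter did not fix this difference, but its Th0 values had been part of the selection.

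Myof differed from these 4. It had 0.363, 0.278, 3.20, and 2.91 FPKM in M22_5, M29_5, M42_5, and M43_5, from 21, 19, 199, and 186 fragments, and every Th17 value lay under the lowest iTreg value of 9.13 FPKM. The mean was 1.69 ± 1.58 FPKM (SD, n = 4). With 2 of 8 libraries over 1 FPKM it was left out by the filter on low values, and its log2 difference from Th0 was 1.16. Its fragments were 50.7-fold those of Th0 (interval 25.5 to 118).

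In each of these 5 genes every Th17 library lay above every Th0 library, as in 13.2% of the 10269 genes tested. Nothing is read from that count, since it was fixed for all but Ctla2a by the way the genes entered the comparison. Of all genes tested, 19.3% had a limma adjusted p under 0.05 (10.6% up-regulated and 8.69% down-regulated).

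Library M29_5 was the lowest Th17 library for 4 of the 5 genes, and Gja3 was lowest in M43_5. Among all genes tested M29_5 was the lowest for 21.2%, and for 25.6% of the 1091 up-regulated genes. For Ctla2a, Kctd14, Myof, and Peli2 both M42_5 and M43_5 were above M22_5 and M29_5, whereas Gja3 had the opposite order. Foxp3 was 0.499, 0.502, 4.50, and 42.5 FPKM in M22_5, M29_5, M42_5, and M43_5, and Il17a was 22.9, 7.27, 65.2, and 21.2 FPKM. Of the 8 myeloid markers Cd68 and Itgam had a row, and they summed to 5.58 to 16.5 FPKM in Th17 and 3.34 to 5.03 FPKM in Th0 libraries, without overlap, while Lyz2, Csf1r, Cd14, and Adgre1 had no row. Cd68 was 15.9 FPKM in M22_5 and 5.46 to 7.33 FPKM in the other Th17 libraries. The dendritic markers Zbtb46 and Xcr1 summed to 0.248 to 0.675 FPKM in Th17 and 0.306 to 1.68 FPKM in Th0 libraries, Cd79a was 0.586 to 2.49 and 0.646 to 3.84 FPKM, and Pecam1 3.59 to 9.44 and 12.1 to 22.9 FPKM. The part of these cells and of Foxp3 and Il17a in the values of the 5 genes was not tested.

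The starts of the headings recur in every group. Libraries with the same start deviated from their group means together. Pearson's r across genes was 0.662 to 0.769 for the 4 pairs of iTreg and Th0 libraries and 0.450 to 0.784 for Th17 and Th0. Pairs with different starts had -0.576 to 0.248 for iTreg and Th0 and -0.590 to 0.434 for Th17 and Th0. In a limma fit with the heading start as a replicate block, the adjusted p of Ctla2a in Th17 versus Th0 was 1.9e-04. The Th0 values of Ctla2a had been part of the selection here too. The block raised the share of all genes called from 16.6% to 40.9% in iTreg and from 19.3% to 37.8% in Th17 cells, so counts of related genes are given under both fits.

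To place the 9 genes beside their families and pathways, lists of related genes without the 9 were tested in both comparisons. Among the connexins, Gja1 was the only other gene with a row. It had 0.735 ± 0.691 FPKM in Th0 and 13.2 ± 5.80 FPKM in iTreg libraries (SD, n = 4 each), a log2 difference of FPKM + 1 of 3.02. Th17 libraries had 9.82 ± 4.29 FPKM, a log2 difference of 2.64. With a Th0 mean under 1 FPKM, Gja1 could not pass the filter on low values without its iTreg or Th17 libraries. Both differences are therefore given without a test. Gja1 encodes the most widely expressed connexin. In FPKM it stood above Gja5 and Gja3 in iTreg cells by its mean.

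Of the LIM homeobox and LIM-only genes, 3 were tested. Lhx2 was lower than in Th0 in both comparisons, by 1.18 on the log2 scale in iTreg and by 1.25 in Th17 cells. Its mean was 0.729 FPKM in iTreg and 0.664 FPKM in Th17 libraries, so it could not pass the filter on low values without its Th0 libraries. These differences of Lhx2 are therefore given without a test. Its iTreg direction was opposite to that of Lhx6, which has no Th17 row. Of 8 ferlin and membrane repair genes, Capn2 rose and Anxa2 fell in iTreg cells (log2 fold changes 0.50 and -0.92), and Ehd3 and Capn1 rose in Th17 cells (0.67 and 0.52). None of these is a ferlin. Of 14 KCTD genes, Kctd11 rose (2.23) with Kctd10 (0.42) and Kctd12 fell (-0.70) in iTreg cells, and Kctd6 (1.07), Kctd10 (0.55), and Kctd18 (0.38) rose in Th17 cells. With the block, 5 of 8 membrane repair and 6 of 14 KCTD genes were called in iTreg cells and 7 of each list in Th17 cells. Of the 3 LIM genes, the block called 2 in iTreg and 3 in Th17 cells, both counts with Lhx2, whose call the filter fixed. Of all genes tested, the block called 40.9% in iTreg and 37.8% in Th17 cells.

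Of 16 genes of the stress response in which NUPR1 acts, Eif2ak3 (1.68), Cebpb (1.14), and Chac1 (0.62) rose in iTreg cells and none fell, and Eif2ak3 (1.36) and Chac1 (0.70) rose and Atf3 (-1.42) fell in Th17 cells. Eif2ak3 encodes the stress kinase PERK. With the block, 11 of the 16 rose in iTreg cells and 3 in Th17 cells, where 1 fell. The median log2 fold change of the list was 0.55 in iTreg and 0.13 in Th17 cells, beside 0.01 and -0.00071 for all genes tested.

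Of 12 genes of Pellino and IRAK signalling, Traf6 rose (1.42) and Irak2 (-0.90) and Tab3 (-0.42) fell in iTreg cells. In Th17 cells Myd88 (0.58) and Tab2 (0.31) rose and Irak2 (-1.46) fell. The block raised the calls from 3 to 5 in either comparison. Among cathepsins and inhibitors of cysteine proteases, Ctla2b (4.44), Ctsw (3.94), and Cstb (1.04) rose and Cst7 (-2.05) fell of 15 tested in iTreg cells. In Th17 cells 5 of 16 rose, led by Ctla2b (4.18), Ctsw (4.08), and Lgmn (2.08), and Cst7 fell (-1.87). In both comparisons the filter on low values fixed the call of Ctla2b, which passed only through its iTreg or Th17 libraries. With the block 10 rose and 2 fell in iTreg cells and 9 rose and 2 fell in Th17 cells. Ctsl, which encodes cathepsin L, had 6.18 ± 3.29 FPKM in iTreg and 2.76 ± 1.27 FPKM in Th0 libraries (limma adjusted p 0.19 without and 8.2e-04 with the block), and 12.7 ± 6.22 FPKM in Th17 libraries (limma adjusted p 0.022 without and 1.1e-04 with the block).

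The last lists follow the cytokines of the cocktails. Of 22 genes of TGFβ signalling and its known targets, 14 rose and 1 fell in iTreg cells, with a median log2 fold change of 0.85, and 13 of 21 rose and 1 fell in Th17 cells, with a median of 1.04. Foxp3 (3.81), Nt5e (3.28), and Id1 (3.16) rose most in iTreg cells, Pmepa1 (3.16), Itgae (3.08), and Nt5e (2.92) in Th17 cells, and Id3 fell in both (-1.63 and -1.75). Of the IL2 and STAT5 targets, 8 of 13 rose in iTreg cells, led by Socs2 (3.31), Lta (2.58), and Cish (1.90), and Gzmb fell (-2.66). In Th17 cells, which received no IL2, 5 of 14 rose, among them Socs3 (4.12) and Socs1 (1.72), and Gzmb (-3.05) and Bcl2 (-1.39) fell. Cish (-1.04) and Socs2 (-0.88) were not called in Th17 cells without the block. In the iTreg comparison, Itgae and Id1 passed the filter on low values only through iTreg libraries. In the Th17 comparison, Itgae had 0.187 to 1.00 FPKM in Th0 libraries and could not pass the filter without its Th17 libraries. Gzmb passed it only through Th0 libraries in both comparisons. The filter fixed these calls, so nothing is read from them. With the block, 17 of the 22 TGFβ genes rose and 2 fell in iTreg cells and 14 of 21 rose and 1 fell in Th17 cells. Of the IL2 and STAT5 targets, 8 rose and 1 fell in iTreg cells with the block, and 5 rose and 5 fell in Th17 cells, where Cish, Bcl2l1, and Pim2 joined Bcl2 and Gzmb. Without the block, 8.36% of all genes tested rose and 8.21% fell in iTreg cells, and 10.6% rose and 8.69% fell in Th17 cells. With the block, 20.9% rose and 20% fell in iTreg cells, and 19.2% rose and 18.6% fell in Th17 cells.

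**Figure D5:**
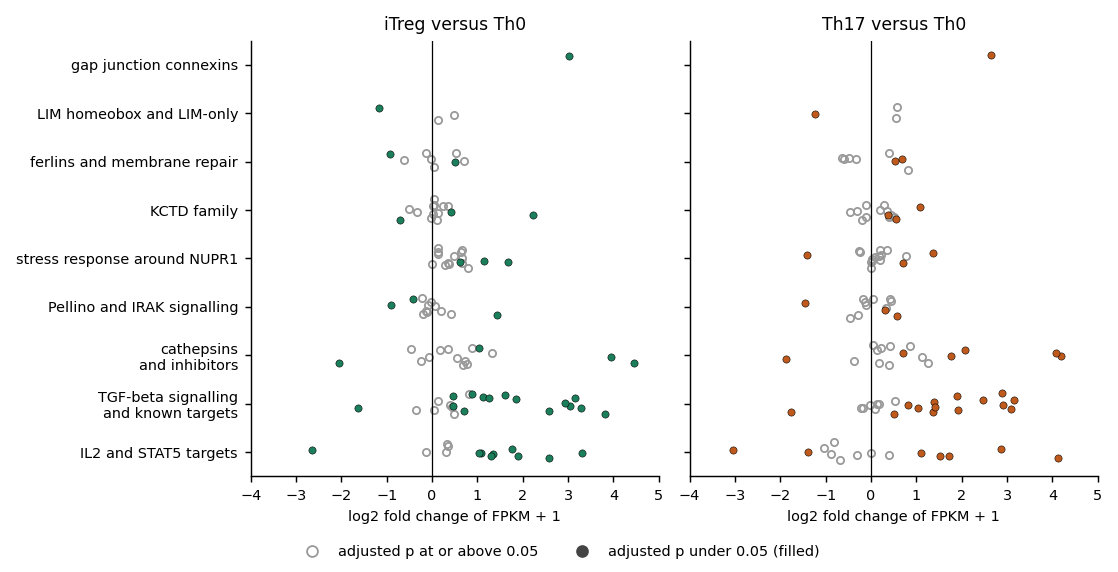
Log2 fold change of FPKM + 1 (x axis) of every tested gene of the related lists (rows), for iTreg versus Th0 (left) and Th17 versus Th0 (right), without the replicate block. Filled points have a limma adjusted p under 0.05, and the TGFβ list holds 14 filled points above 0 for iTreg and 13 for Th17.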

How the data were processed

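Mouse RNA-seq of 12 libraries, 4 per group by the labels, was analysed. The authors aligned reads with TopHat 2.0.14 to mm10, counted exonic reads with HTSeq-count without strand, kept genes over 1 CPM in at least 4 samples, tested them with edgeR, and deposited FPKM in 2 tables that were scaled separately. The annotation and the FPKM formula are not given in the sources used here. Deposited columns with the authors' log2 fold changes, log2 average CPM, likelihood ratios, p-values, and FDR were not used, and 0 columns of other samples were left out. For iTreg cells, the methods text gives 20 ng/ml TGFβ1 and the labels 10 ng/ml.

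Genes over 1 FPKM in at least 4 of 8 libraries were tested on log2(FPKM + 1), which understates changes of low genes, with limma 3.58.1 in R 4.3.3 and Benjamini-Hochberg adjustment (FDR 0.05), without a block since the headings carry no experiment number. P-values measure the spread between these libraries. The main fit leaves out the pairing that the authors used. Whole fragments were recovered for 99.9% of genes (within 0.01 of a whole number) as the smallest whole numbers on the steps of a gene, 1 step over both tables, with Python 3.11.15, numpy 2.4.6, scipy 1.17.1, and pandas 2.3.3. Of 10873 shared genes, 99.3% had the same Th0 fragments when the tables were read separately. Recovery and limma were tested on simulated data. Coordinates and overlaps are from GENCODE of GRCm38 (mm10). The 9 genes and all lists were chosen with earlier results of these data known. Beyond the 9, up to 3 called genes per list and direction, 10 genes of the same pattern, 5 of the most alike profile, neighbours of the bounds, paralogs, overlapping genes, and markers were named, and Ctsl was added after its values were seen. The values of a single gene that this rule names are not reported here.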

Additional observations from a re-analysis of the deposited data

Results flagged for a closer look

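Of the 21 groups of 4 libraries examined for a value far from the other 3, 3 held such a value. All 3 were single fragments in Th0 cells beside libraries at 0, which meet this criterion by construction, so the usual chance rate of about 1 in 20 groups does not apply to them. Lhx6 had 0.0296 FPKM in M43_1, Gja5 had 0.0333 FPKM in M43_1, and Peli2 had 0.0226 FPKM in M22_1, and the other 3 Th0 libraries of each gene were at 0. Each value stands for 1 recovered fragment.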

How the results depend on the processing

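Alternatives to the main settings were log2(FPKM + 0.1), no filter on low values, limma with a trend, median-of-ratios size factors, an FDR of 0.01, bounds on medians, each library left out in turn, and, added after seeing the data, the start of the headings as a replicate block. Bounds on medians concern only the genes of the same pattern. Ctla2a in Th17 versus Th0 had a limma adjusted p of 8.9e-05 to 0.0021 under the others. Its Th0 values had been part of the selection, so this range is no independent measure of stability. The choice of Gja3, Peli2, and Kctd14 and the filter fixed their distance from Th0, so their calls say nothing about stability. At an FDR of 0.01, 995 rather than 1983 genes were called in Th17 and 778 rather than 1691 in iTreg cells. With the replicate block, 3882 and 4170 genes were called, and of the related genes 63 rather than 40 in Th17 and 70 rather than 41 in iTreg cells, and no call of the unblocked fit was lost. Leaving out a library gave 1364 to 2237 genes in Th17 and 1140 to 1521 in iTreg cells, 33 to 50 and 34 to 42 related genes, and 54 to 67 genes of the same pattern. With 0.1 in place of 1 FPKM added, log2 differences between iTreg and Th0 grew to 3.74 for Gja3 (from 1.17), 4.34 for Cmklr1, 5.78 for Gja5, 6.06 for Ctla2a, 6.29 for Peli2, 6.99 for Myof, 7.09 for Kctd14, 7.34 for Lhx6, and 7.70 for Nupr1. Those between Th17 and Th0 grew to 6.01 for Gja3 (from 2.89), 5.84 for Peli2 (from 2.81), 5.42 for Kctd14 (from 3.16), and 5.00 for Ctla2a (from 4.48). Size factors moved the median of all genes by under 0.01.

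Depth limits the folds of Lhx6, Gja5, and Peli2, whose Th0 level rests on 1 fragment in 4 libraries, and of Gja3 and Cmklr1, for which 0 fragments allow up to 3.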
